A study of Mus musculus with 6 samples.

Results

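The transcripts of 7 ion channels reported in brown or white adipocytes were examined in brown fat of cold-exposed mice with and without adenylyl cyclase 3 in their adipocytes. The channels were chosen by name, with earlier results of these data known. All 7 of the 7 symbols were found among the 54385 rows of the deposited table, each in a single row: Kcnk3, Otop1, P2rx5, Trpv2, Trpv4, Lrrc8a and Piezo1. Polyadenylated RNA came from interscapular brown adipose tissue, the heat-producing depot between the shoulder blades, of C57BL/6N mice. All mice had been fed chow for 20 weeks and were held at 5 °C for the last 24 hours, and all carried the floxed Adcy3 alleles in homozygous form. The mice behind the 3 control libraries (Adcy3-FL/FL/Adipoq-wt/wt) had no Cre. Those behind the 3 knockout libraries (Adcy3-FL/FL/Adipoq-wt/cre) had 1 Cre allele driven by Adipoq. Cre under Adipoq acts in white as well as brown adipocytes, and the other cells of the depot keep the gene. No group was kept warm, so the cold response of a channel cannot be read from these libraries.

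Ion channels set the membrane voltage, the calcium level and the volume of a brown fat cell. Noradrenaline from sympathetic nerves raises cyclic AMP in the cell through adenylyl cyclases and also changes its membrane voltage, and channels act on both arms. Kcnk3 encodes TASK-1, a two-pore potassium channel that carries a background outward current and closes when the outside turns acid. Otop1 encodes otopetrin 1, a proton channel best known from sour taste cells. P2rx5 encodes an ATP-gated cation channel used as a surface marker of brown and beige adipocytes. Trpv2 and Trpv4 encode calcium-permeable channels of the TRP family, Lrrc8a the obligatory subunit of the volume-regulated anion channel, and Piezo1 a cation channel opened by membrane stretch.

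Cyclic AMP acts on genes in part through factors that bind the response element TGACGTCA, so the promoters of the 7 channels were read for these letters. RefSeq windows from 250 bases before to 50 bases after an annotated start (build GRCm38.p6) matched 5 of the 7 channels, with 7 windows in all, and Kcnk3 and P2rx5 were not matched. The full element stood in 1.79% of 32851 such windows, and among the channels in that of Lrrc8a alone, beginning 108 bases before the start. The shorter run TGACG, read on both strands and contained in the full element, stood in 20.8% of all windows and among the channels again only in that of Lrrc8a. The letters TATAAA, read on both strands, stood in 13.6% of all windows. They were found in the Piezo1 window, 24 bases before the start, and in 1 of the 3 Trpv2 windows, past the start. Base composition also differed: the Lrrc8a window held 70.0% G and C and 32 CpG pairs, the Otop1 window 71.7% and 18, and the Trpv2 window shown here 50.3% and 2, beside medians of 52.7% and 7 over all windows. Shown are Lrrc8a for its element, Otop1 as the most abundant of the 5 with a window, and Trpv2 as the least abundant. Capitals mark TGACGTCA in Lrrc8a and TATAAA in Trpv2.
Lrrc8a, chr2:30237519-30237818, plus strand: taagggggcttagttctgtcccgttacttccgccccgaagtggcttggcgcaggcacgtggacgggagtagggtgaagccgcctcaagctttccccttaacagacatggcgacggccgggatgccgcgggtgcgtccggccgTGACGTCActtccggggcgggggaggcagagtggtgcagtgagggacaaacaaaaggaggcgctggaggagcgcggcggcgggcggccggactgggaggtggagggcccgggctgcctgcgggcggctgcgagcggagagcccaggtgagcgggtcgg
Otop1, chr5:38277154-38277453, plus strand: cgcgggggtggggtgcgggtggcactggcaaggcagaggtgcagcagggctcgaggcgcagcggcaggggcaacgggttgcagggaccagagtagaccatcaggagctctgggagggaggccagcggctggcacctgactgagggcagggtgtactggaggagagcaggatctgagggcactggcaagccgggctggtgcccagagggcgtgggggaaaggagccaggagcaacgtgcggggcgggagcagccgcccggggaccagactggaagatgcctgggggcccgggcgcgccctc
Trpv2, chr11:62574263-62574562, plus strand: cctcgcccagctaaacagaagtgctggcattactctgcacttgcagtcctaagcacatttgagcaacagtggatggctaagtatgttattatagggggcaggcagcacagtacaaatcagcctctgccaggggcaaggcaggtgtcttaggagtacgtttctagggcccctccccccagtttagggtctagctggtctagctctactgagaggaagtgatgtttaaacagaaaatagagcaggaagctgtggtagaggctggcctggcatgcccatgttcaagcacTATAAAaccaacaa
A match of letters is a description of the window and shows no binding there.

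The libraries held from 13956786 to 17538044 estimated counts each. Adcy3 checked the labels: its level was 135, 169 and 158 counts per 1000000 (CPM) in the controls, and 21.9, 30.3 and 24.1 CPM remained in the knockouts (log2 fold change -2.60 ± 0.17, SE; edgeR adjusted p = 0.00146). All 12 brown adipocyte markers were detected in every library, with Ucp1, the uncoupling protein of brown fat mitochondria, averaging 5752 ± 316 CPM for the controls and 7288 ± 265 CPM for the knockouts (SD, 3 libraries each). Over all 14767 genes tested, 4 were called higher and 5 lower at an adjusted p under 0.05. Knockout library 1 stood apart, and without it 45 were called higher and 812 lower.

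The 7 channels spanned a wide range of abundance. Compared per length, as CPM per kilobase of merged exons, Kcnk3 was the most abundant at 172 ± 39.9 (SD over the 6 libraries), above 98.4% of the genes tested. Otop1 followed at 92.7 ± 12.2, above 97.3% of tested genes. P2rx5 stood at 18.2 ± 2.57 and Piezo1 at 14.6 ± 2.71 CPM per kilobase. Those neighbours in the order had overlapping ranges, although P2rx5 was the higher of the pair in 5 of 6 libraries. Lrrc8a stood at 8.14 ± 1.39 CPM per kilobase, and its highest library did not reach the lowest of Piezo1. Both TRP channels were far lower, Trpv4 at 0.621 ± 0.175 and Trpv2 at 0.450 ± 0.241 CPM per kilobase, with overlapping ranges. Lrrc8a stood 13.1 times above Trpv4, the widest step in the order. The order was the same with the length of the longest transcript in place of merged exons.

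**Figure D1:**
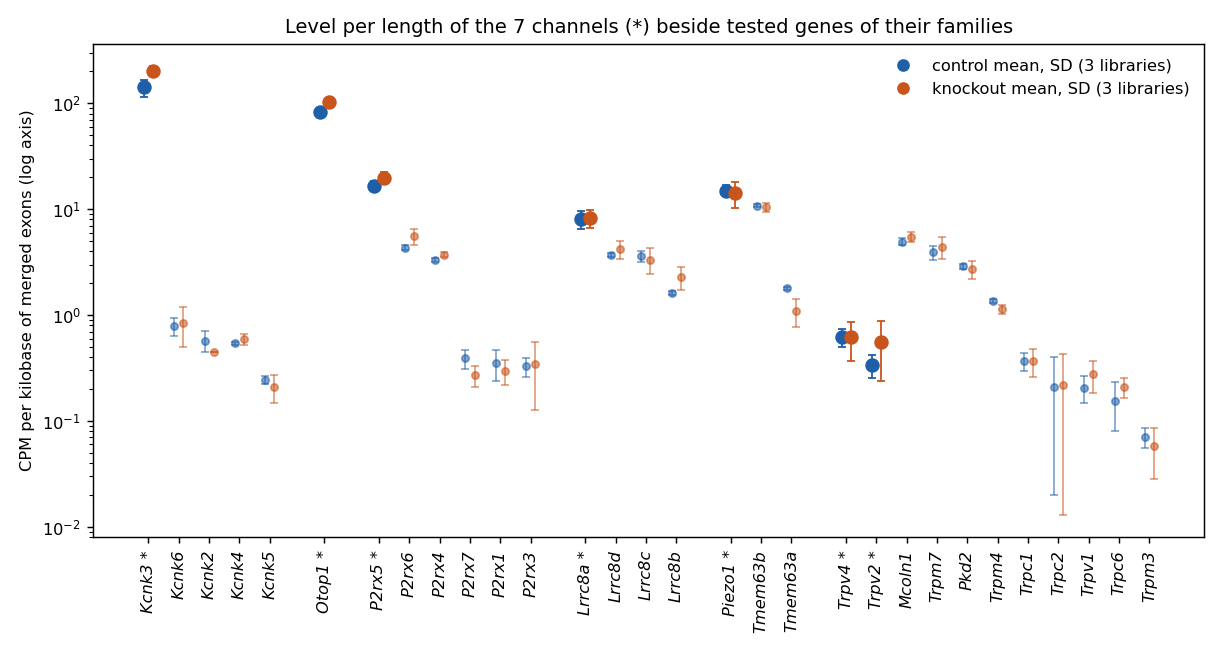
Level per length in CPM per kilobase of merged exons (log axis) of the 7 channels, marked with an asterisk, beside tested genes of their families; points are group means of 3 libraries and bars are SD. Kcnk3 (172 over all libraries) and Otop1 (92.7) lie above every other channel drawn. Over all libraries, Trpv4 (0.621) and Trpv2 (0.450) lie below Mcoln1, Trpm7, Pkd2 and Trpm4 and above the other TRP genes drawn.

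None of the 7 channels passed the test between genotypes. In edgeR's quasi-likelihood test adjusted over all genes, 0 of 7 were higher and 0 of 7 lower, beside 0.0271% and 0.0339% of all genes tested. At an unadjusted p under 0.05, 2 of the 7 were higher and 0 lower, against 2.87% and 7.6% of all genes, and these were Kcnk3 and Otop1. DESeq2 on the same filtered genes, a fit added after the data were seen, called 1 of the 7 higher, Kcnk3, beside 0.21% of the 14758 genes given an adjusted p. For the same pair, every knockout library lay above every control library, an arrangement found for 7.63% of all genes. The median log2 fold change of the 7 was 0.25, beside 0.01 over all genes. The labels number the samples as replicates and do not say that each came from a separate mouse. The spread between libraries may therefore be technical in part.

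**Figure D2:**
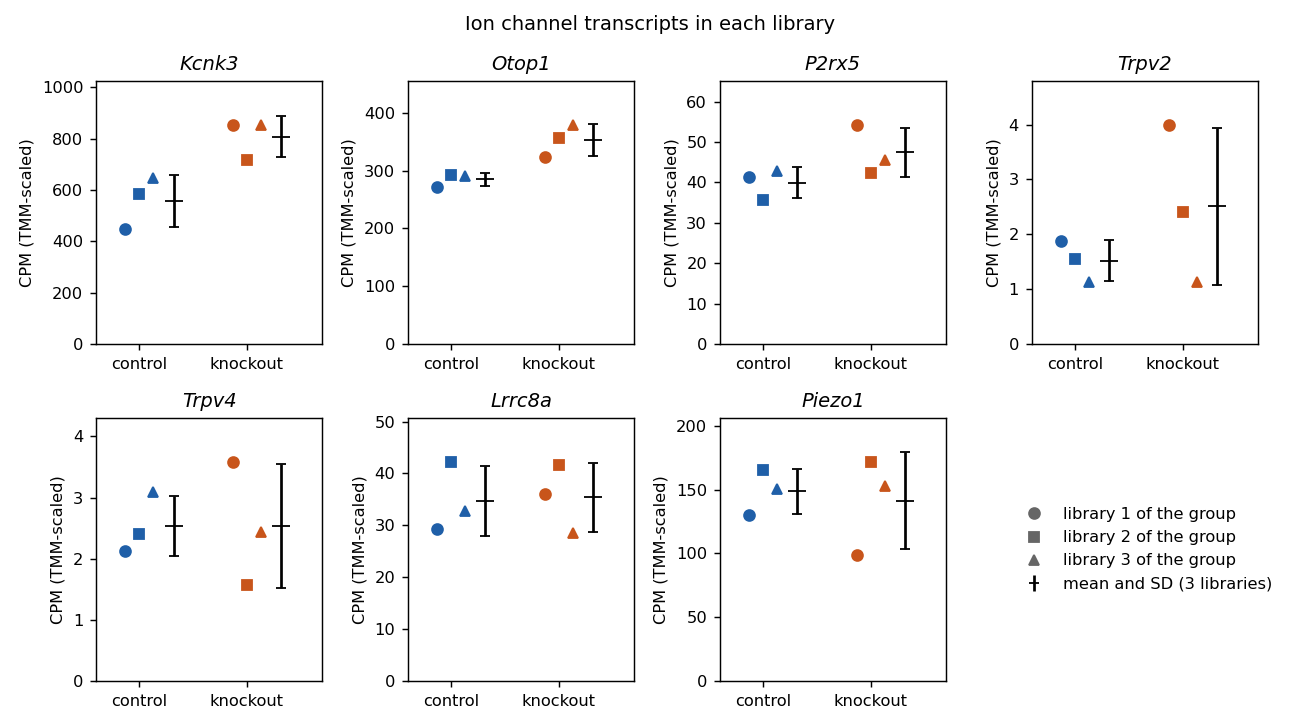
CPM of each of the 7 channels in each library (vertical axis from 0, a scale for each gene), with controls in blue and knockouts in orange, symbols for libraries 1 to 3 and black bars for mean and SD. Knockout and control libraries do not overlap for Kcnk3 and Otop1, and overlap for the other 5.

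Kcnk3, the background potassium channel, measured 447, 584 and 646 CPM in controls 1 to 3, and 854, 715 and 852 CPM in knockouts 1 to 3. The lowest knockout library was above the highest control. The knockout mean was 1.44 times the control mean, with a log2 fold change of 0.53 ± 0.16 (SE; 95% interval 0.15 to 0.91; edgeR adjusted p = 0.310). The call depended on the tool and on the filter. On the same filtered genes DESeq2 gave 0.535 with an adjusted p of 0.0495, just past the threshold, and limma-voom gave 0.54 with an adjusted p of 0.156. Without a low-count filter edgeR gave 0.54 with an adjusted p of 0.0394. DESeq2 on all genes with counts gave 0.54 with an adjusted p of 0.0463. It gave an adjusted p to 18168 of 31851 genes, so that fit was not free of filtering. Unfiltered edgeR and DESeq2 on all genes with counts each called 1 of the 7 channels higher and 0 lower. The shares were 0.348% and 2.45% of all genes with edgeR, and 0.171% and 1.43% of those given an adjusted p with DESeq2. The adjusted p over all alternatives ranged from 0.0394 to 0.741. Without control library 1, the lowest of the 6, the log2 fold change was 0.38.

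Otop1, the proton channel, was tighter within groups. It stood at 272, 293 and 290 CPM in controls and at 324, 357 and 379 CPM in knockouts, so that again no library of one group reached the other. The coefficient of variation was 3.85% in controls and 7.82% in knockouts, against 18.2% and 9.86% for Kcnk3. The knockout mean was 1.24 times the control mean (log2 fold change 0.31 ± 0.12, SE; 95% interval 0.03 to 0.59; edgeR adjusted p = 0.431). Otop1 came nearest to the threshold without knockout library 1, at 0.37 with an adjusted p of 0.0855.

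P2rx5, the ATP-gated channel, stood at 41.2, 35.6 and 42.9 CPM in controls and at 54.2, 42.4 and 45.6 CPM in knockouts. Knockout library 2 lay just under control library 3, so the groups overlapped by that pair. The log2 fold change was 0.25 ± 0.14 (SE; 95% interval -0.07 to 0.57; edgeR adjusted p = 0.584), and 0.14 without knockout library 1, the highest of the 6.

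The brown adipocyte signal was itself higher in the knockouts. The summed level of the 12 brown adipocyte markers was 13900, 14310 and 14390 CPM in controls and 18820, 16190 and 17500 CPM in knockouts, 1.23 times the control mean and without overlap (exact permutation test, two-sided, p = 0.1, which is the lowest value that groups of 3 allow). Most of the sum came from Ucp1 and Fabp4. They averaged 5752 and 4363 of 14200 CPM in controls, and 7288 and 5212 of 17500 CPM in knockouts. Ratios to the sum therefore rest largely on these genes. In whole tissue, more cells of a type and more RNA per cell cannot be told apart. Set against this sum, a ratio chosen after the values were seen, Kcnk3 came to 3.22%, 4.08% and 4.49% of the marker sum in controls and 4.54%, 4.42% and 4.87% in knockouts. The groups then overlapped, and the ratio of means was 1.17 in place of 1.44. Otop1 came to 2.01% ± 0.043 of the marker sum for the controls and 2.03% ± 0.268 for the knockouts (SD, 3 libraries each), a ratio of 1.01. P2rx5 came to 0.281% ± 0.0282 and 0.270% ± 0.0156, a ratio of 0.961. For the other 4 channels the ratio was 1.32 for Trpv2 in place of 1.65, 0.834 for Lrrc8a in place of 1.02, 0.797 for Trpv4 in place of 0.997 and 0.784 for Piezo1 in place of 0.95. The groups overlapped for all 7 channels on this scale. The marker sum and the channels come from the same libraries, and the ratios were not tested.

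Lrrc8a, the subunit that every volume-regulated anion channel needs, stood at 29.2, 42.3 and 32.7 CPM in controls and at 36.0, 41.7 and 28.5 CPM in knockouts. Both groups covered nearly the same range. Its log2 fold change was 0.03 ± 0.19 (SE; edgeR adjusted p = 0.978), and the 95% interval of the fold, 0.752 to 1.38, covers shifts in both directions. Lrrc8a was also the channel whose promoter window held TGACGTCA.

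Piezo1, the stretch-activated channel, stood at 130, 165 and 151 CPM in controls and at 98.6, 172 and 153 CPM in knockouts. Knockout library 1 was the lowest of the 6, whereas library 2 was the highest and library 3 exceeded 2 of the 3 controls. The log2 fold change was -0.07 ± 0.21 (SE; 95% interval of the fold 0.678 to 1.33; edgeR adjusted p = 0.941). Without knockout library 1 it was 0.13, so that its sign rested on that library.

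Trpv4, the TRP channel gated by swelling and warmth, rested on few reads, between 24 and 53 estimated counts per library. It stood at 2.12, 2.41 and 3.08 CPM in controls and at 3.59, 1.56 and 2.43 CPM in knockouts, with the highest and the lowest value both among the knockouts. The log2 fold change was -0.0034 ± 0.35 (SE), and the 95% interval of the fold ran from 0.570 to 1.74.

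Trpv2, the other TRP channel of the set, had between 17 and 59 estimated counts per library. It stood at 1.88, 1.55 and 1.14 CPM in controls and at 3.99, 2.41 and 1.13 CPM in knockouts. The knockouts spread over 57.1% of their mean (coefficient of variation), the most of the 7 channels, and library 3 lay below every control. The log2 fold change was 0.71 ± 0.47 (SE; 95% interval of the fold 0.775 to 3.44; edgeR adjusted p = 0.639). It was 0.20 without knockout library 1 and 1.06 without knockout library 3, neither past the threshold (edgeR adjusted p = 0.883 and 0.567).

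**Figure D3:**
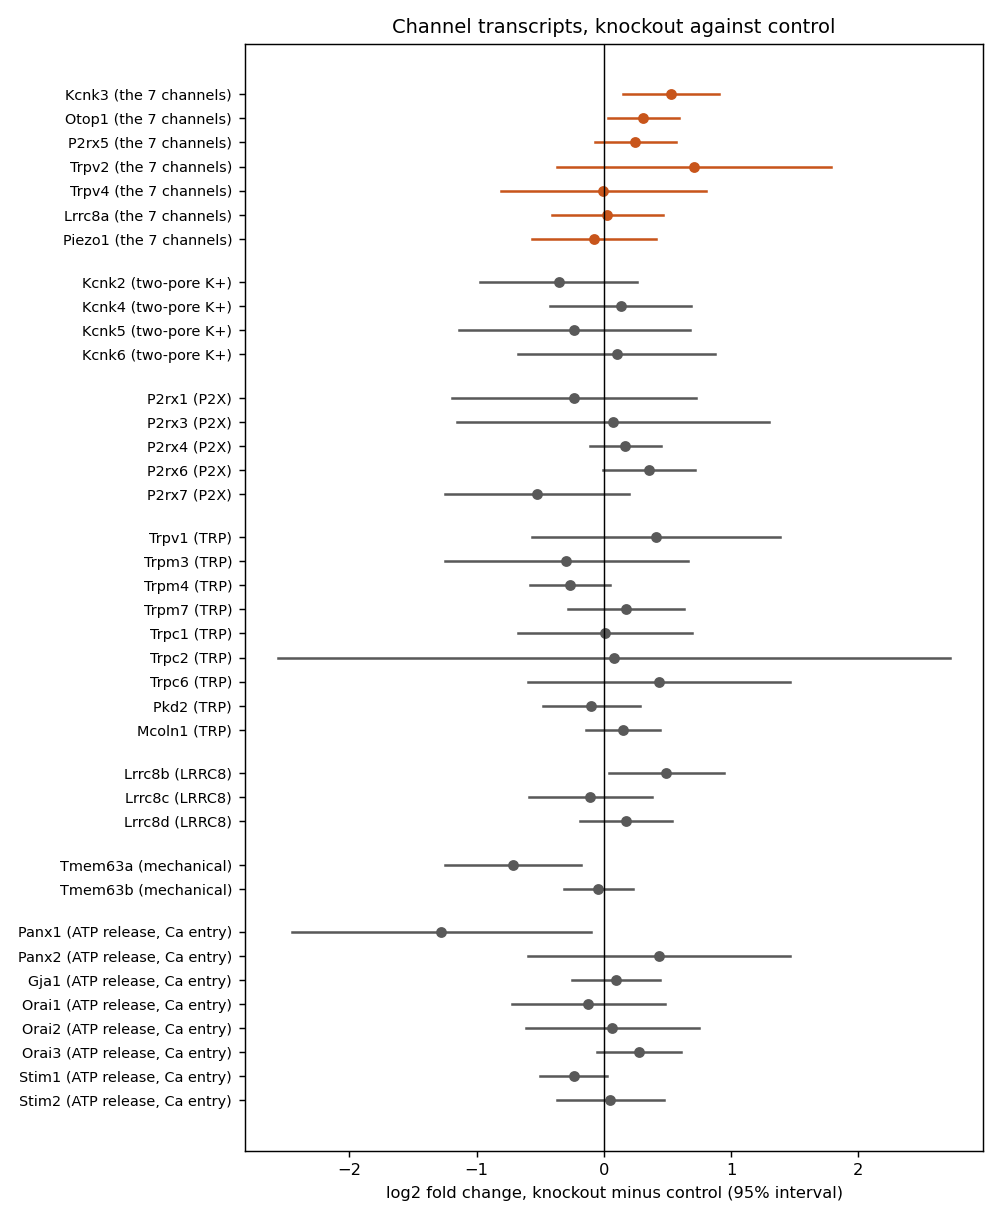
Log2 fold change, knockout minus control, with 95% intervals from edgeR's quasi-likelihood fit, for the 7 channels (orange) and tested related channels (grey) by family. The intervals of Kcnk3, Otop1 and Lrrc8b lie above 0 before adjustment, those of Tmem63a and Panx1 below it, and no gene drawn passed after adjustment over all genes.

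The related channels gave the same count. Of 62 listed genes, 32 had enough counts to be tested, and edgeR called 0 higher and 0 lower. Over all genes the shares were 0.0271% and 0.0339%. At an unadjusted p under 0.05, 1 of the 32 was higher and 2 were lower, beside 2.87% and 7.6% of all genes, and DESeq2 also called 0, beside 0.21% higher and 1.87% lower of the same filtered genes. Every knockout library lay above every control in 2 of the 32 and below in 3, beside 7.63% and 10.8% of all genes. The median log2 fold change of the 32 was 0.07, with 19 positive and 13 negative.

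Among two-pore potassium channels Kcnk3 stood alone in abundance. Of the 13 other genes 4 were tested, and the most abundant of them, Kcnk6, was lower than Kcnk3 per length, which was 210 times its level (range over libraries 120 to 387). The stretch-sensitive Kcnk2 (log2 fold change -0.35 ± 0.27, SE) and Kcnk4 (0.13 ± 0.24), and Kcnk5 (-0.23 ± 0.39) and Kcnk6 (0.10 ± 0.34), did not pass. The other otopetrins, Otop2 and Otop3, had 0 counts in all 6 libraries, where 3 counts would be between 0.172 and 0.203 CPM per library, so Otop1 was the otopetrin detected. That pair was named with its values known, as are Trpm7, Trpm8, Lrrc8e, Gja1, Piezo2, Pkd2, Trpc2 and P2rx3 in what follows.

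Of the 6 other P2X receptors 5 were tested. Per length P2rx5 exceeded P2rx6 3.69 times and P2rx4 5.19 times, and was the highest of the family in all 6 libraries. P2rx6 stood at 16.5, 18.3 and 17.2 CPM in controls and at 26.5, 19.9 and 20.1 CPM in knockouts, with no overlap (log2 fold change 0.36 ± 0.16, SE; edgeR adjusted p = 0.479). P2rx4 also had every knockout library above every control, at 23.2 ± 1.06 and 26.1 ± 1.41 CPM (SD, 3 libraries each; edgeR adjusted p = 0.678). Such a lack of overlap, with the knockouts above, was found for 7.63% of all genes. P2rx7, the ATP receptor known from macrophages, had a log2 fold change of -0.53 ± 0.31 (SE), and P2rx1 one of -0.23 ± 0.42. Macrophage marker sums overlapped between the groups, from 93.9 to 180 CPM in controls and from 73.3 to 159 CPM in knockouts. Of the 10 macrophage markers, 1 had a positive log2 fold change, and the median was -0.37. Their part in the P2rx7 value was not tested.

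Of 25 other TRP genes 10 were tested and 4 had 0 counts in every library, Trpm8, the menthol and cold sensor of sensory nerves, among them. Mcoln1, a lysosomal cation channel, was the most abundant of those tested, at 4.93 CPM per kilobase in controls and 5.49 in knockouts. Trpv4 reached 0.119 and Trpv2 0.0863 times its level per length, and against Trpm7, a channel fused to a kinase, they reached 0.149 and 0.108 times. Both exceeded Trpc6 per length in all 6 libraries, Trpv4 3.4 times and Trpv2 2.46 times. Trpm4, a sodium-permeable channel opened by calcium, stood at 15.3, 14.7 and 14.3 CPM in controls and at 12.7, 11.0 and 13.2 CPM in knockouts. All knockouts were below all controls (log2 fold change -0.26 ± 0.14, SE; edgeR adjusted p = 0.558), an arrangement found for 10.8% of all genes. Trpc6 (0.44 ± 0.45, SE) and Mcoln1 (0.15 ± 0.13) did not pass.

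Volume-regulated anion channels pair LRRC8A with other LRRC8 subunits, which set what the pore passes. Lrrc8a was the most abundant subunit per length in all 6 libraries, 2.07 times Lrrc8d, 2.35 times Lrrc8c and 4.16 times Lrrc8b. Lrrc8e had 22 counts over all libraries and was not tested. Lrrc8b stood at 11.5, 10.5 and 10.9 CPM in controls and at 11.2, 16.8 and 18.2 CPM in knockouts. Knockout library 1 lay within the controls and the other 2 lay above them (log2 fold change 0.49 ± 0.20, SE; edgeR adjusted p = 0.443). Without that library Lrrc8b was called higher, at 0.68 ± 0.14 (SE; edgeR adjusted p = 0.0167), as were 0.296% of all genes in that fit. Lrrc8d (0.18 ± 0.16, SE) and Lrrc8c (-0.10 ± 0.21) did not pass.

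Among mechanical channels Piezo1 and Tmem63b, a stretch-activated channel of another family, had similar levels, with Piezo1 1.37 times higher per length and above it in 5 of 6 libraries. Tmem63b had a log2 fold change of -0.04 ± 0.12 (SE). Its paralog Tmem63a stood at 7.95, 7.91 and 8.38 CPM in controls and at 6.63, 4.04 and 4.10 CPM in knockouts. Tmem63a was thus below in every knockout library (log2 fold change -0.72 ± 0.23, SE; edgeR adjusted p = 0.333), an arrangement found for 10.8% of all genes. Without knockout library 1 it was called lower, at -0.99 ± 0.19 (SE; edgeR adjusted p = 0.0119), as were 5.35% of all genes in that fit. Piezo2, the touch and proprioception channel of sensory neurons, was too rare to be tested, with 8, 9 and 10 counts in controls and 1 count in each knockout. The controls held 8.56 times the knockouts' level (exact 95% limits from counting error alone, 2.63 and 44.1), and in the fit without a filter it did not pass (edgeR adjusted p = 0.124). Summed Schwann cell and nerve markers overlapped between the groups, from 119 to 173 CPM in controls and from 124 to 143 CPM in knockouts. Of the 8 such markers tested, 3 had a positive log2 fold change, and the median was -0.42. Their part in the Piezo2 counts was not tested.

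ATP reaches P2X receptors through release channels such as pannexin 1, and stored calcium is refilled through STIM and ORAI proteins. Panx1 stood at 1.12, 1.60 and 2.01 CPM in controls and at 1.15, 0.326 and 0.475 CPM in knockouts. Knockout library 1 lay within the controls and the others below them (log2 fold change -1.28 ± 0.51, SE; edgeR adjusted p = 0.442). Stim1, the calcium sensor of the store, had every knockout below every control, at 140 ± 5.76 and 119 ± 8.01 CPM (SD, n = 3 each; log2 fold change -0.24 ± 0.12, SE; edgeR adjusted p = 0.526). That arrangement was found for 10.8% of all genes. Orai3 (0.28 ± 0.14, SE) and Panx2 (0.43 ± 0.45) did not pass. Gja1, the gap junction protein connexin 43, was the most abundant of this list, averaging 349 ± 28.1 CPM for the controls and 373 ± 56.2 CPM for the knockouts (SD, 3 libraries each).

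Summed cell type markers differed between the genotypes for several lists, and muscle markers also between knockout libraries. The muscle, fibroblast, mural and white adipocyte sums did not overlap between genotypes (exact permutation test, two-sided, p = 0.1 each, the lowest possible). In these lists edgeR called 0 markers, and cell number and RNA per cell cannot be told apart. Summed skeletal muscle markers (20 genes, none at 0 in any library) were 19610, 17640 and 13900 CPM in controls and 9235, 671 and 98.6 CPM in knockouts. With the log2 muscle marker sum as a covariate, 13 of the 32 tested related channels came nearer to 0 and 19 moved farther from it. Of the 32, 11 changed sign and 0 passed the threshold. The 3 with an unadjusted p under 0.05 came nearer, Lrrc8b to -0.0034 ± 0.23 (SE), Tmem63a to -0.27 ± 0.28 and Panx1 to -0.50 ± 0.67. In each of the 3, knockout library 1 is the knockout nearest the control mean, as it is for the muscle markers, so these shifts are no separate test. Among those that moved farther were P2rx6, to 0.62 ± 0.20 (SE), P2rx7, to -0.89 ± 0.53, and Pkd2, from -0.10 to -0.45 ± 0.22. The largest moves were those of Trpc2, from 0.08 to -2.27 ± 1.84 (SE), and P2rx3, from 0.07 to -1.60 ± 0.71. These examples were picked after their values were seen. Fibroblast and progenitor markers came to 624 ± 112 and 371 ± 86.1 CPM, and mural cell markers to 921 ± 9.83 and 678 ± 74.7 CPM, both without overlap (SD, n = 3 each). Des, a mural marker that muscle also expresses, made up 405 and 145 CPM of the mural means, a larger drop than that of the whole mural sum. Rgs5, another mural marker, averaged 277 and 324 CPM and overlapped between the groups. Of the 10 mural markers, 4 had a positive log2 fold change. Endothelial markers, from the cells in which Piezo1 and Trpv4 are best known, came to 872 ± 116 and 916 ± 69.3 CPM and overlapped. White adipocyte markers (8 genes, 1 of them at 0 throughout) came to 100.4 ± 15.4 and 56.5 ± 3.33 CPM. Lymphocyte markers were near 0 in total, at 5.00 ± 0.874 and 3.87 ± 0.723 CPM. In the same covariate fit Kcnk3 was at 0.53 ± 0.22 (SE; edgeR adjusted p = 0.302), as without it, Otop1 at 0.16, P2rx5 at 0.42, Trpv2 at 1.73, Trpv4 at 0.37, Lrrc8a at 0.21 and Piezo1 at -0.55, none of them past the threshold. That fit rests largely on knockout library 1, the knockout with muscle counts nearest the controls.

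**Figure D4:**
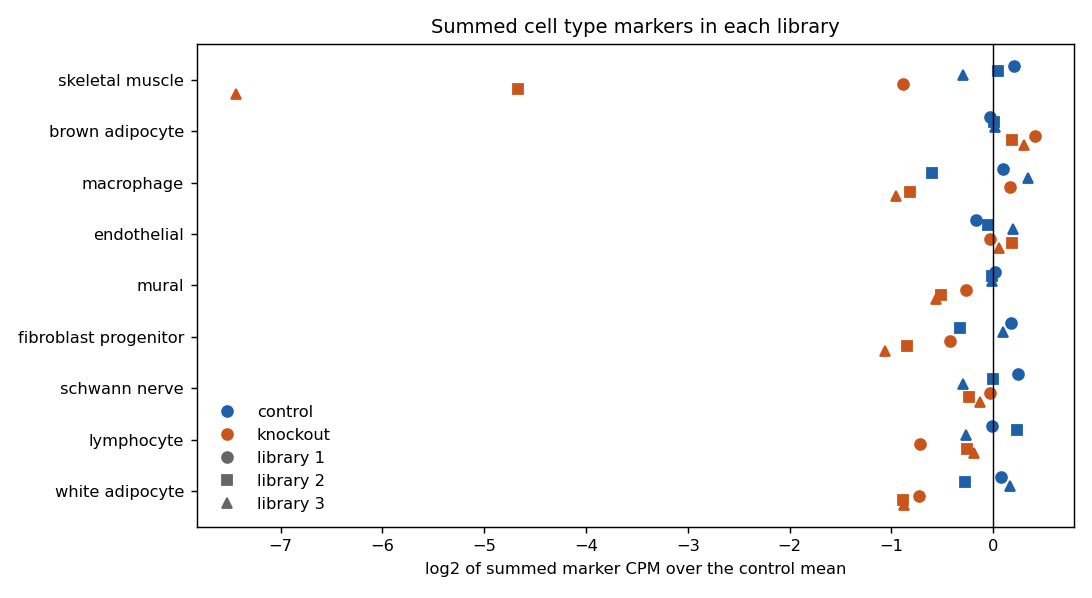
Summed CPM of each marker list in each library, as log2 of its ratio to the control mean, with controls in blue, knockouts in orange and symbols for libraries 1 to 3. Skeletal muscle markers run from 9235 CPM in knockout library 1 to 98.6 CPM in library 3, whereas the brown adipocyte sum is above all controls in each knockout (1.23 times the mean).

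Several of the channel genes overlap others. Lrrc8a (chromosome 2, 30237715 to 30263790, plus strand) shares 2853 exon bases with the same-strand model Gm28035, which averaged 5.83 ± 3.05 CPM for the controls and 4.47 ± 2.18 for the knockouts (SD, 3 libraries each). Summed, the pair had a log2 fold change of -0.025. Lrrc8a also shares 91 exon bases with the opposite-strand antisense gene 1700084E18Rik, which was not summed with it. Piezo1 (chromosome 8, 122481698 to 122551329, minus strand) shares 2441 exon bases with Ctu2, a transfer RNA thiolation gene on the opposite strand at 7.08 ± 0.825 and 8.24 ± 2.54 CPM, and their sum gave -0.06. Kcnk3 (chromosome 5, 30588170 to 30625271, plus strand) shares 229 exon bases with the opposite-strand model Gm9899, at 42.7 ± 5.71 and 47.2 ± 11.7 CPM, and their sum gave 0.51. Reads of opposite-strand partners cannot be told apart when the counting may have ignored strand. Otop1 (chromosome 5, 38275972 to 38304217, plus strand), P2rx5 (chromosome 11, 73160421 to 73172685, plus strand), Trpv2 (chromosome 11, 62574486 to 62600515, plus strand) and Trpv4 (chromosome 5, 114622152 to 114658421, minus strand) overlap no other annotated gene. Positions are those of GENCODE on GRCm38.

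The genes with the most similar pattern over the 6 libraries were found by Pearson's r of log2 CPM among about 9407 genes with a mean of at least 5 CPM, as a description. Nearest to Kcnk3 were Sars, a seryl-tRNA synthetase (r = 0.99), and Rap1gap, which switches off the small GTPase Rap1 (0.99), with 193 genes above 0.9. Slc38a6, an amino acid transporter, and Fam149b were nearest to Otop1 (both 0.99), and 119 genes exceeded 0.9. Ccndbp1 and Rab29 were nearest to P2rx5 (both 0.99), Foxp1 and Banp to Lrrc8a (both 0.96), and Srcap and Focad to Piezo1 (both 1.00). Vps4a (0.99) and Fbxl4 (0.98) were nearest to Trpv2, and Sssca1 (1.00) and Pla2g15 (0.99) to Trpv4. Piezo1 had the most such neighbours above 0.9, at 329, and Lrrc8a the fewest, at 23. With 6 libraries, values this high arise for many genes at once, and all genes of a library share its depth and tissue makeup.

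**Figure D5:**
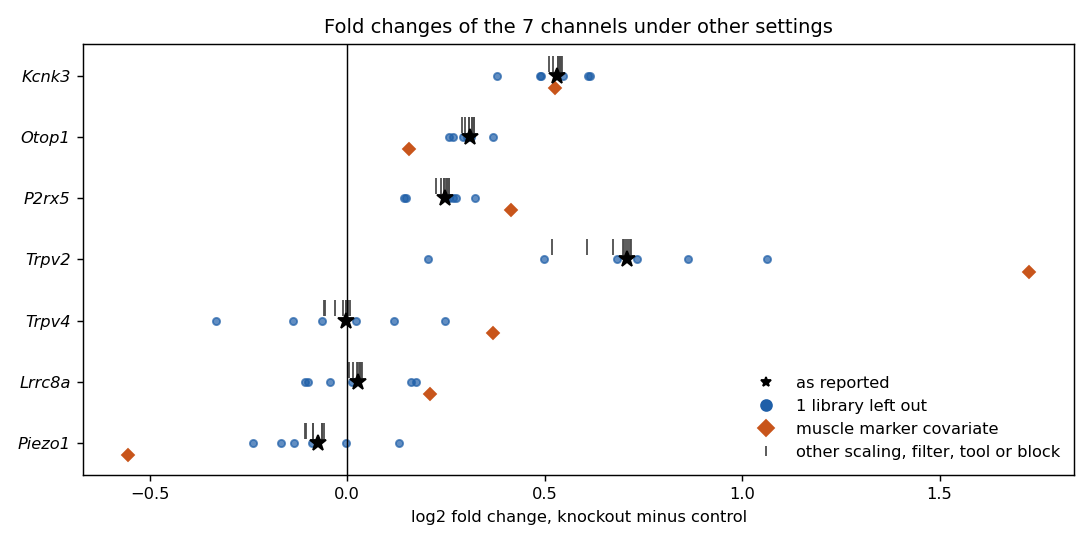
Log2 fold change of each of the 7 channels, knockout minus control, as reported (star), with each library left out (blue), with muscle markers as a covariate (orange) and under other scaling, filters, tools or the replicate block (grey ticks). Kcnk3, Otop1, P2rx5 and Trpv2 stay above 0 in every setting drawn, while Trpv4, Lrrc8a and Piezo1 cross 0.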

How the data were processed

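Per the labels' protocols, polyadenylated RNA of 6 samples, 3 controls and 3 knockouts, was sequenced in paired-end libraries (NEBNext Ultra II RNA kit). The series' design text disagrees with the sample labels on depot and sample number, and the labels were followed. StringTie, Salmon, edgeR and the build GRCm38 appear in the submitters' processing notes, without versions or settings, and strand use is not stated there. Values are the deposited estimated counts, taken as not normalized, and their totals in the file are unequal. Columns were matched by sample description, and symbols and positions came from GENCODE vM21 (54131 of 54385 identifiers matched).

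The estimated counts were rounded. Genes passing filterByExpr (minimum count 10, total 15) entered edgeR 4.0.16 (R 4.3.3; glmQLFit, glmQLFTest) with TMM scaling and genotype as the term. P-values were adjusted by Benjamini-Hochberg over 14767 genes, with a threshold of 0.05. CPM use the TMM-scaled library size as denominator, SE is the log2 fold change over the root of F, and intervals are 95%. A count of 3 equals 0.172 to 0.203 CPM, and counting limits cover counting error only. The fit was checked on simulated counts. Libraries of a group differed beyond sampling noise (chi-square test). Same-numbered samples correlated in their deviations at 0.07, 0.11 and 0.05, so numbers were not taken as pairs. Alternatives were other size factors (RLE, upper quartile), DESeq2 1.42.0 (on all genes with counts), limma-voom (limma 3.58.1), other filters, a replicate block, each library left out, scaling without the most abundant genes, a muscle marker covariate and a threshold of 0.1. DESeq2 on the filtered genes, sums of overlapping genes and ratios to brown adipocyte markers were added after seeing the data. The channels and lists were chosen with earlier results of these data known. Named were the 7 channels, Adcy3, up to 4 tested genes per related list by smallest p, abundant markers and the 2 most similar genes per channel. A tested gene of the related lists is counted but not reported by name or drawn here.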

Additional observations from a re-analysis of the deposited data

How the results depend on the processing

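None of the 7 channels was called under any alternative except Kcnk3, which passed with DESeq2 on all genes with counts, where tool and filter both change (0.54, adjusted p = 0.0463; 1 channel called higher), with DESeq2 on the same filtered genes (0.535, adjusted p = 0.0495; 1 called higher) and with edgeR without a low-count filter (0.54, adjusted p = 0.0394; 1 called higher). Kcnk3, Otop1, P2rx5 and Trpv2 kept their direction in every alternative. Trpv4 turned with DESeq2 on all genes with counts (0.0020), without a filter (0.0073) and with the muscle covariate (0.37), and Lrrc8a when summed with Gm28035 (-0.025). With 1 library left out, log2 fold changes ranged from 0.20 to 1.06 for Trpv2, from -0.33 to 0.25 for Trpv4, from -0.11 to 0.17 for Lrrc8a and from -0.24 to 0.13 for Piezo1, while 0 of the 7 were called in each such fit.

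Counts over all genes moved more. Against 4 higher and 5 lower, there were 31 and 276 with DESeq2 on the same filtered genes, 31 and 259 with DESeq2 on all genes with counts, 111 and 782 with edgeR without a filter, 12 and 10 with the muscle covariate and 7 and 39 at an adjusted p under 0.1; limma-voom called 27 lower. The replicate block gave 2 higher and 2 lower and called no channel; every sample correlated best with its own number, at values too low to pair them. With 1 library left out, from 3 to 45 genes were higher and from 1 to 812 lower, and from 0 to 1 of the related channels were called in each direction. Log2 ratios of marker sums ranged from -0.0062 to 0.18 for endothelial and from -0.26 to 0.0082 for nerve markers. Where no cause is shown, the cause was not tested. Trpv2 (17 to 59 estimated counts per library), Trpv4 (24 to 53) and Piezo2 (1 to 10) rest on few reads, and how much of their spread is counting error was not tested.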
